A study of Saccharomyces cerevisiae BY4743 with 24 samples.

Results

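Hsp90 and its co-chaperones were followed as 10 mRNAs of budding yeast across polysome gradients at 30 °C and after heat. The members are the 2 Hsp90 genes HSP82 and HSC82 and the 8 co-chaperone genes STI1, CNS1, CPR6, AHA1, HCH1, SBA1, CDC37 and SGT1. They were taken by gene symbol from the deposited table, where all 10 were found among 5959 mRNA entries. All 24 libraries were used.

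Hsp90 is an ATP-driven chaperone dimer that completes the folding or activation of a limited set of clients, among them protein kinases and transcription factors. Sti1 hands clients over from Hsp70, the kinase adaptor Cdc37 and the adaptor Sgt1 bring particular clients, Aha1 and Hch1 stimulate the ATPase, and Sba1, the yeast p23, binds the closed ATP-bound dimer. Cpr6 is a peptidyl-prolyl isomerase that binds Hsp90 through tetratricopeptide (TPR) repeats, as Sti1 and Cns1 do. HSP82 is known as the heat-inducible copy of Hsp90 and HSC82 as the copy expressed at high level without stress.

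The cells were the diploid strain BY4743, grown to mid-log phase at 30 °C in synthetic complete medium with 2% raffinose and a little glucose. Cells of the 30 °C group were harvested at that point. Those of the 42 °C group were collected on a filter, moved into 42 °C medium and harvested 30 min later, so temperature cannot be told apart from that handling. All cells were chilled with cycloheximide, lysed and run on 10% to 50% sucrose gradients, and the fractions were joined into 4 pools, the first 3 of which the library names call mono, di and tri. With 3 replicates at 2 temperatures this gives 6 gradients and 8 groups of 3 libraries. Whether the replicates were separate cultures is not given in the labels, and p-values measure only the spread between these samples, which may be technical.

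Levels are given as mRNA TPM, which is TPM rescaled so that the mRNA entries of a library sum to 1000000. The read depth is unknown. In single libraries the mRNA entries summed to 20482 to 37690 TPM at 30 °C and to 1423 to 27460 TPM at 42 °C, lowest in the 3 libraries of pool 1 at 42 °C (1423, 2483 and 4016), and the correlation between replicates was lowest there too (0.752). Of the strain's marker genes, URA3 was listed at 0 in all 24 libraries. LEU2, which is deleted in the published genotype, was at 0 in all 8 libraries of replicate 3 but at 22.6 to 217.1 mRNA TPM in replicate 1 and 4.15 to 25.8 in replicate 2, at both temperatures. The part of this difference in the results was not tested, and heat differences within each replicate number are therefore given below.

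HSP82 (YPL240C) lies on chromosome XVI at 96496 to 98625 and HSC82 (YMR186W) on chromosome XIII at 632355 to 634472, in the R64 gene table. The co-chaperone genes are STI1 (YOR027W, XV, 381053 to 382822), CNS1 (YBR155W, II, 549771 to 550928), CPR6 (YLR216C, XII, 572096 to 573211), AHA1 (YDR214W, IV, 892875 to 893927), HCH1 (YNL281W, XIV, 108467 to 108928), SBA1 (YKL117W, XI, 220324 to 220974), CDC37 (YDR168W, IV, 790328 to 791848) and SGT1 (YOR057W, XV, 432186 to 433373). HCH1 is the shortest gene at 462 nt, followed by SBA1 at 651 nt, and HSP82 the longest at 2130 nt.

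Both Hsp90 mRNAs and 6 of the 8 co-chaperone mRNAs rose with heat relative to the mRNA sum. The members that rose did so by between 2.35-fold (CDC37) and 88.0-fold (HSP82), and CNS1 and SGT1 did not pass the test. Thus 8 of 10 members were higher and 0 lower over the mean of the 4 pools in limma, both at 5% after adjustment and at an unadjusted p under 0.05, beside 31.2% of the 3949 tested genes higher and 32.4% lower. The median log2 difference of the members was 3.41 and that of all tested genes −0.02. Scaled to the 25S rRNA of the large ribosomal subunit, 6 members were higher (beside 15% of tested genes) and 2, SGT1 and CNS1, were lower (beside 53.4%), and the median tested gene stood at −0.94.

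The heat-inducible Hsp90 mRNA HSP82 was at 38.5 mRNA TPM in the lowest, 56.5 in the median and 202.8 in the highest of the 12 libraries at 30 °C. At 42 °C it was at 3926 in the lowest, 5633 in the median and 10985 in the highest. Every library at 42 °C thus lay above every library at 30 °C. As means of gradients HSP82 went from 83.6 ± 2.08 to 6420 ± 1243 (SD, n = 3), a log2 difference of 6.46 ± 0.22 (SE; limma adjusted p = 4.5e-06). It stood at rank 820 of all mRNAs at 30 °C and at rank 26 at 42 °C.

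Its paralog HSC82 started higher and rose less. It was at 311.7, 482.7 and 1739 mRNA TPM in the lowest, median and highest library at 30 °C and at 4017, 5452 and 9532 at 42 °C. The temperatures did not overlap. The gradient means were 756.6 ± 115 and 5972 ± 798 (SD, n = 3), and the log2 difference was 3.18 ± 0.22 (SE; limma adjusted p = 3.3e-05), or 9.09-fold. HSC82 was at rank 191 at 30 °C and rank 30 at 42 °C.

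The Hsp90 mRNAs were far from equal at 30 °C and close to equal at 42 °C. The TPM ratio of HSP82 to HSC82 was 0.108 at 30 °C and 1.06 at 42 °C as geometric means of the gradients. In pool 4 the HSP82 to HSC82 ratio was 0.125, 0.117 and 0.108 in the 3 libraries at 30 °C and 1.02, 1.17 and 1.15 at 42 °C. In pool 1 it was 0.146, 0.104 and 0.0876 against 0.985, 1.04 and 1.15. The log2 difference of the ratio was 3.30 over the 4 pools, and exact permutation gave p = 0.1, the smallest that 3 against 3 gradients can give (0.133 after Benjamini-Hochberg over 4 ratios). Pairing the gradients by their number, p was 0.25 by exact sign flips, the smallest that 3 pairs can give, for this ratio, for the Hsp90 sum and for the summed share of the members below. This ratio needs no scaling of the library, but the paralogs are near-identical and the quantification splits their shared reads, so single values of both genes are uncertain.

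The sum of HSP82 and HSC82 does not depend on that split. It went from 704.8 to 11909 mRNA TPM as geometric means, which is 16.9-fold (log2 4.08; exact permutation p = 0.1, n = 3 per temperature). The log2 difference of the sum was 3.03 on the 25S rRNA scale, 4.14 with the median gene equalised and 2.84 on the spike-in scale, where gradients of the 2 temperatures overlapped (exact permutation p = 0.2). Together the 10 members made up 0.190% of mRNA TPM at 30 °C and 3.05% at 42 °C as geometric means (log2 4.00, exact permutation p = 0.1).

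**Figure D1:**
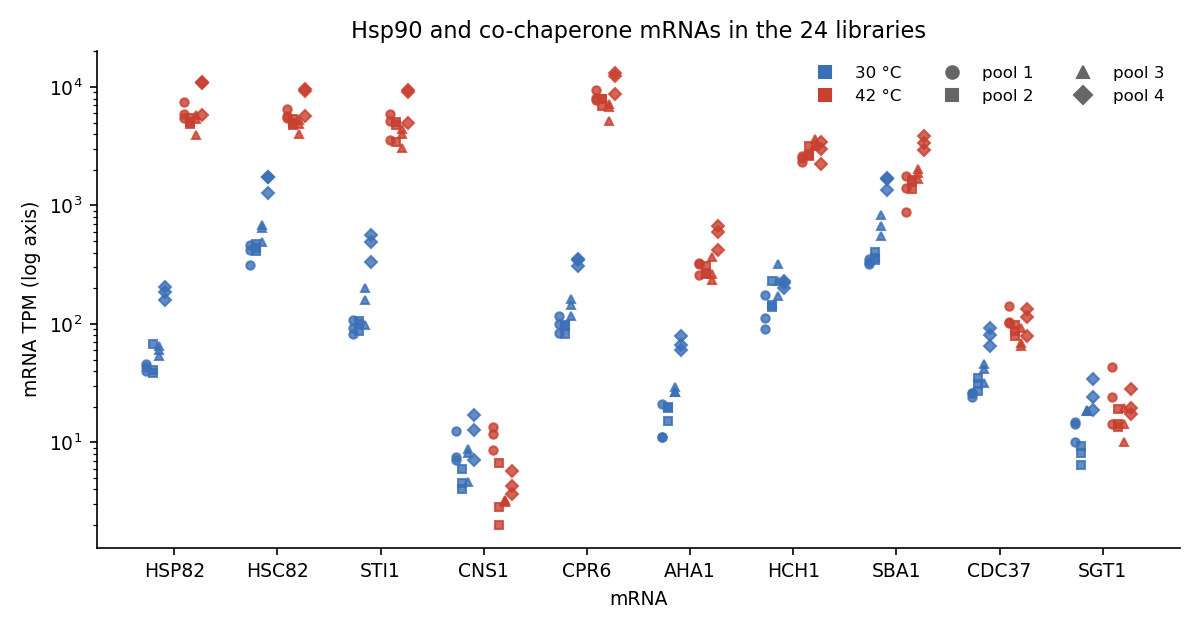
Level of each member in each of the 24 libraries, in mRNA TPM on a log axis, with colour for the temperature and symbol for the gradient pool. The libraries at 42 °C all lie above those at 30 °C for HSP82, HSC82, STI1, CPR6, AHA1 and HCH1, while CNS1, SBA1, CDC37 and SGT1 overlap.

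Among the TPR adaptors, STI1 and CPR6 rose and CNS1 did not. STI1, the Hsp70 to Hsp90 adaptor, was at 82.8, 106.6 and 566.3 mRNA TPM in the lowest, median and highest library at 30 °C and at 3053, 4862 and 9360 at 42 °C. CPR6, the cyclophilin, was at 82.5, 117.0 and 351.8 at 30 °C and at 5138, 7906 and 13047 at 42 °C. Neither overlapped between temperatures. STI1 changed by a log2 difference of 4.97 ± 0.26 (SE; limma adjusted p = 1.2e-05) and CPR6 by 5.82 ± 0.21 (limma adjusted p = 4.7e-06), and CPR6 was the highest member at 42 °C with a gradient mean of 8448 ± 1173 (SD, n = 3).

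CNS1, an essential TPR co-chaperone, was the scarcest member. Its level was 4.04, 7.31 and 16.9 mRNA TPM in the lowest, median and highest library at 30 °C and 1.99, 3.96 and 13.5 at 42 °C, so the temperatures overlapped. It reached 10 mRNA TPM in only 5 of 24 libraries, and its log2 difference of −0.55 did not pass (SE 0.28, 95% interval −1.21 to 0.12, limma adjusted p = 0.13). The 3 values in pool 1 at 42 °C were its highest at that temperature (13.5, 8.57 and 11.7). Without the pool 1 libraries the difference was −0.83 and passed (limma adjusted p = 0.043), beside 36.9% of tested genes lower. That fit was added after the data were seen and leaves out these high values, so its call cannot be read apart from that choice. Outside pool 1, CNS1 reached 10 mRNA TPM in fewer libraries than the 3 that the filter asks for.

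The ATPase regulators AHA1 and HCH1 rose in every gradient. AHA1 was at 11.1, 23.8 and 78.2 mRNA TPM in the lowest, median and highest library at 30 °C and at 233.4, 313.6 and 673.7 at 42 °C. HCH1, a relative of AHA1's amino-terminal domain, was at 90.1, 186.8 and 323.1 at 30 °C and at 2236, 2825 and 3667 at 42 °C. Neither overlapped. Their log2 differences were 3.64 ± 0.22 and 3.99 ± 0.22 (SE; limma adjusted p = 1.9e-05 and 1.3e-05).

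SBA1, the p23 homolog, was among the most abundant members at 30 °C and rose less. It was at 320.6, 478.2 and 1703 mRNA TPM in the lowest, median and highest library at 30 °C and at 879.4, 1720 and 3840 at 42 °C. Its libraries overlapped across temperatures, with pool 4 at 30 °C (1339 to 1703) within the range of pools 1 to 3 at 42 °C (879.4 to 2014). The log2 difference was 1.64 ± 0.21 (SE; limma adjusted p = 0.00044), and 0.59 on the 25S rRNA scale, where it did not pass (limma adjusted p = 0.068).

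Among the client adaptors CDC37 rose and SGT1 did not pass the test. CDC37, which brings kinases to Hsp90, was at 24.3, 33.3 and 92.9 mRNA TPM in the lowest, median and highest library at 30 °C and at 65.2, 94.6 and 140.4 at 42 °C. These ranges overlapped, and the log2 difference was 1.24 ± 0.20 (SE; limma adjusted p = 0.0012) but 0.21 on the 25S rRNA scale, where it did not pass. SGT1, an adaptor for kinetochore and ubiquitin ligase components, was at 6.42, 16.5 and 34.1 at 30 °C and at 9.96, 18.2 and 43.4 at 42 °C. The ranges overlapped, and its difference of 0.30 did not pass (SE 0.24, 95% interval −0.27 to 0.87, limma adjusted p = 0.31) and had the opposite sign on the 25S rRNA scale (−0.66).

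Every library at 42 °C lay above every library at 30 °C for 6 members, namely HSP82, HSC82, STI1, CPR6, AHA1 and HCH1, beside 8.56% of tested genes. Heat differences within replicate numbers 1, 2 and 3 were 6.02, 6.61 and 6.74 for HSP82, 3.23, 3.18 and 3.15 for HSC82, 4.78, 4.92 and 5.19 for STI1 and 5.61, 6.02 and 5.82 for CPR6. For AHA1 they were 3.56, 3.36 and 3.99, for HCH1 3.60, 4.07 and 4.31, for SBA1 1.73, 1.37 and 1.80, and for CDC37 1.37, 1.17 and 1.17. All 8 members that passed were thus higher in each of the 3 replicate numbers, replicate 3 included, where LEU2 was at 0. These 8 were called on the mean of the same values, so the shared sign is not a separate check. The share of tested genes with such a shared sign was not counted. CNS1 was lower in each (−0.17, −0.85 and −0.62), and SGT1 had mixed signs (0.39, −0.08 and 0.59).

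The order of the members by level changed with temperature. At 30 °C, HSC82 and SBA1 came first and their gradients overlapped, then STI1, HCH1 and CPR6, which overlapped as neighbours, and then HSP82, CDC37, AHA1, SGT1 and CNS1, each without overlap with the next. At 42 °C the first 4 were CPR6, HSP82, HSC82 and STI1, overlapping as neighbours, followed without overlap by HCH1, SBA1, AHA1, CDC37, SGT1 and CNS1. TPM is per length, so levels of different mRNAs can be set side by side.

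The co-chaperone sum per Hsp90 mRNA overlapped between temperatures, while 7 of its 8 components taken singly did not. The 8 co-chaperone mRNAs together stood at 1.69 per Hsp90 mRNA at 30 °C and 1.56 at 42 °C as geometric means (log2 −0.12, exact permutation p = 0.4, n = 3 per temperature, and p = 0.5 by exact sign flips over pairs). Without CPR6, the most abundant co-chaperone at 42 °C, the log2 difference was −0.78.

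Set per 100 Hsp90 mRNAs, SBA1 was lower at 42 °C than at 30 °C, and CPR6 and STI1 were higher. SBA1 went from 85.3 (range of 3 gradients 80.5 to 88.9) to 15.7 (13.1 to 18.1). CPR6 went from 20.4 (17.9 to 23.2) to 68.8 (67.8 to 70.1), and STI1 from 22.2 (19.9 to 25.2) to 41.4 (37.1 to 44.8). None of these 3 ranges overlapped.

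HCH1 was at 25.3 per 100 (19.6 to 34.8) at 30 °C and at 24.0 (22.7 to 26.0) at 42 °C, and its gradients overlapped (exact permutation p = 0.8). AHA1 was at 3.70 (3.09 to 4.11) and 2.84 (2.54 to 3.02). CDC37 went from 5.59 to 0.792, SGT1 from 2.08 to 0.154 and CNS1 from 1.08 to 0.0403 per 100. All of the 8 co-chaperones but HCH1 had gradients that did not overlap, 2 of them higher and 5 lower, with exact permutation p = 0.1 each (0.114 after Benjamini-Hochberg over 8 ratios). By exact sign flips over pairs these 7 were at p = 0.25 each and HCH1 at p = 0.75. Of all tested genes, 94.7% were lower and 1.32% higher at 42 °C in this ratio without overlap, so a place below the Hsp90 sum is the common case.

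**Figure D2:**
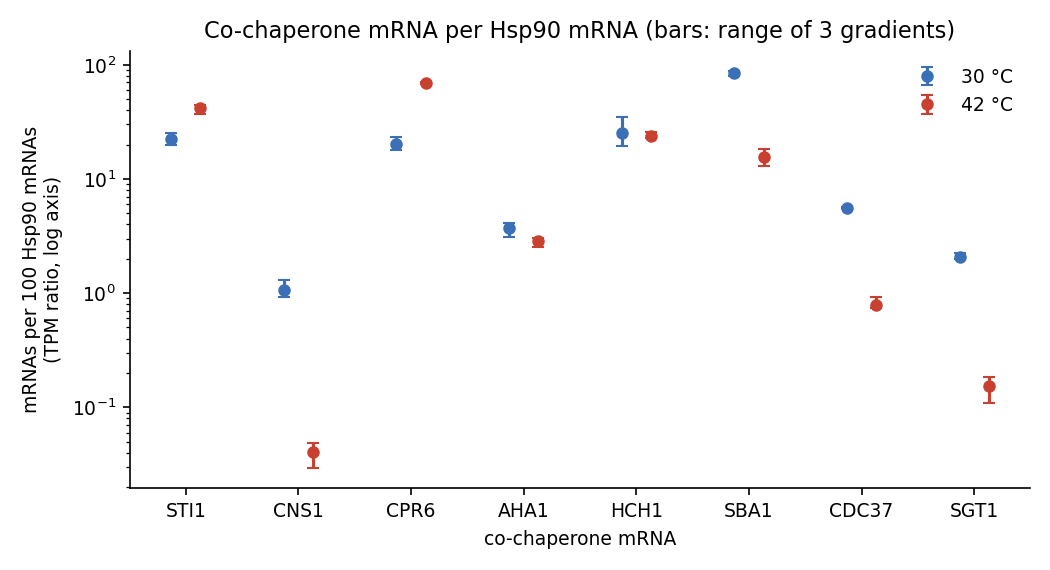
Co-chaperone mRNAs per 100 Hsp90 mRNAs (HSP82 plus HSC82, ratio of TPM, log axis) at 30 °C and 42 °C, with points for the geometric mean of 3 gradients and bars for their range. CPR6 (20.4 to 68.8) and STI1 (22.2 to 41.4) are higher at 42 °C, HCH1 overlaps, and CNS1 is lowest at both temperatures.

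Within single pools most members were higher at 42 °C relative to the mRNA sum. In pools 1 to 4 limma called 9, 9, 8 and 7 members higher, beside 39.7%, 33.2%, 20.9% and 13.8% of tested genes, and 0, 0, 1 and 1 lower, beside 17.1%, 18.8%, 28.1% and 43.8%. The 1 lower member was CNS1 in both pools. With the median gene equalised the counts higher were 8, 8, 8 and 9, beside 26.6%, 25.8%, 27% and 29.6% of tested genes, and those lower 0, 1, 0 and 0, beside 27%, 25.9%, 24.4% and 24.7%. On the 25S rRNA scale 6, 6, 7 and 7 were higher, beside 8.03%, 11.2%, 15.5% and 13% of tested genes, and 2, 1, 1 and 1 lower, beside 51.7%, 43.6%, 38.3% and 44.7%. The 25S rRNA itself was at 97024, 154593 and 268714 TPM in pool 1 at 42 °C and at 292565 TPM or more in every other library. Division by it raises the levels of those 3 libraries, in each 25S value that uses pool 1 at 42 °C. With TPM as deposited, 4, 7, 7 and 8 were higher, beside 1.72%, 15.2%, 16.4% and 16.6%, and 4, 0, 2 and 1 lower, beside 53.3%, 36.5%, 43.8% and 47.7% (in pool 2, 1 was lower at an unadjusted p under 0.05 in limma). On that scale the pseudocount of 1 compresses the differences of low members. In pool 1 at 42 °C all mRNA entries of a library summed to only 1423 to 4016 TPM. The size of such differences cannot be set beside that on the other scales.

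In pool 1, HSP82 was at 45.5, 43.5 and 40.3 mRNA TPM in the 3 libraries at 30 °C and at 5427, 5910 and 7515 at 42 °C. In pool 4 it was at 159.4, 202.8 and 186.3 at 30 °C and at 5835, 10838 and 10985 at 42 °C. Pool 4 thus lay above pool 1 without overlap at 30 °C and overlapped with it at 42 °C, where replicate 1 of pool 4 lay below the other 2. The log2 differences of HSP82 in pools 1 to 4 were 7.14, 6.73, 6.36 and 5.60. The same order, from pool 1 down to pool 4, held for HSC82 (3.91, 3.52, 2.96 and 2.35), STI1 (5.66, 5.47, 4.69 and 4.05), CPR6 (6.40, 6.34, 5.48 and 5.06), AHA1 (4.34, 3.88, 3.31 and 3.01) and HCH1 (4.35, 4.08, 3.85 and 3.70).

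The median tested gene had that order too, at 0.65, 0.42, −0.24 and −0.94 in pools 1 to 4. SBA1 was at 1.95, 2.04, 1.45 and 1.11, and CDC37 at 2.12, 1.48, 0.90 and 0.44, the last not past the threshold (limma adjusted p = 0.13). SGT1 passed in pools 1 and 2 (0.90 and 0.89) but not in pools 3 and 4 (−0.37 and −0.22), and with the median gene equalised it passed in pool 4 alone (0.84). CNS1 was at 0.31, −0.38, −0.92 and −1.20, past the threshold in pools 3 and 4, and with the median gene equalised in pool 2 alone (−0.80).

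**Figure D3:**
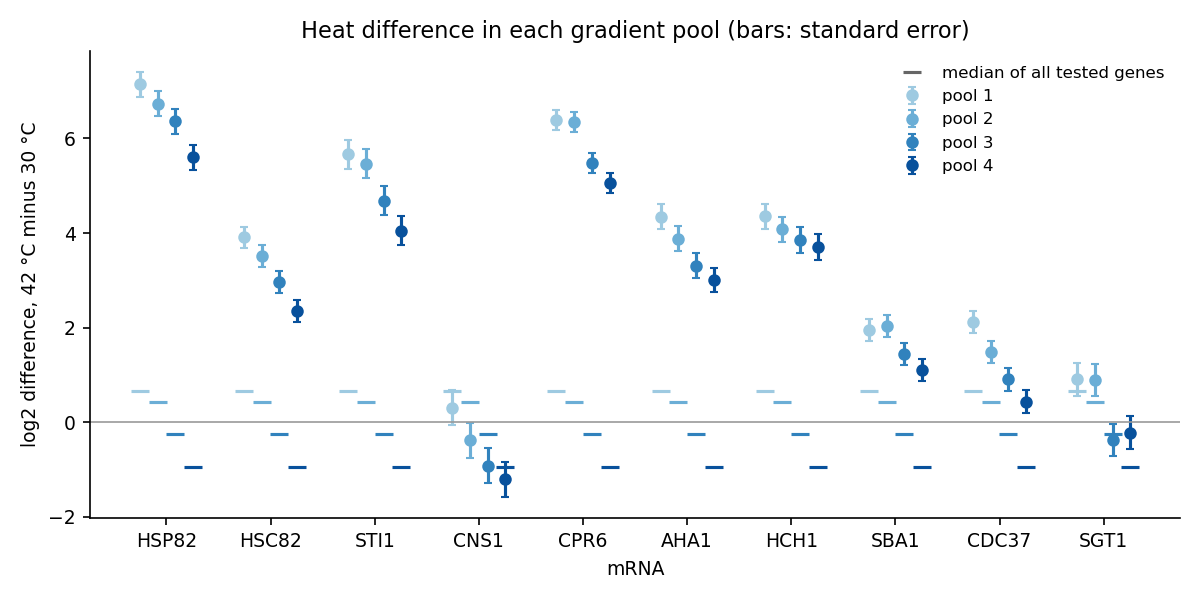
Log2 difference of each member between 42 °C and 30 °C in each of the 4 gradient pools, relative to the mRNA sum, with bars for the standard error and horizontal dashes for the median of all tested genes in the same pool. The differences of HSP82 fall from 7.14 in pool 1 to 5.60 in pool 4, and the median gene falls from 0.65 to −0.94.

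At 30 °C most members had a higher level in pool 4 than in pool 1. Limma called 9 members higher in pool 4 and 0 lower, beside 47.1% and 1.34% of tested genes, and the median gene stood at 1.18. With the median gene equalised, 5 members were higher, beside 4.53% of tested genes: STI1 (1.13), AHA1 (1.09), SBA1 (1.09), HSP82 (0.93) and HSC82 (0.87). CPR6 (0.62) and CDC37 (0.47) did not pass on that scale. HCH1 (0.84 on the mRNA sum, −0.29 with the median gene equalised) and SGT1 (0.90 and −0.22) changed sign with the scale.

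STI1 shows the step at 30 °C. It was at 92.0, 107.6 and 82.8 mRNA TPM in pool 1, at 105.6, 99.97 and 87.5 in pool 2, at 97.5, 199.97 and 159.0 in pool 3 and finally at 331.9, 566.3 and 492.8 in pool 4. Pool 4 lay above every other library at 30 °C, and pools 1 and 2 overlapped. SBA1 was at 320.6, 353.6 and 333.4 in pool 1 and at 1339, 1703 and 1667 in pool 4.

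At 42 °C relative to the mRNA sum 2 members were higher in pool 4 than in pool 1, SBA1 (1.38) and AHA1 (0.88), and CNS1 was lower (−1.14), beside 1.7% of tested genes higher and 11.4% lower and a median gene at −0.36. With the median gene equalised 6 were higher, beside 11.5% of tested genes: SBA1 (2.00), AHA1 (1.51), STI1 (1.27), HSP82 (1.14), HSC82 (1.06) and CPR6 (1.04). HCH1 (0.82) did not pass there. Without replicate 1, 2 or 3, 1 member passed as higher on the mRNA sum, beside 1.80%, 0.61% and 0.43% of tested genes. SBA1 was at 1404, 879.4 and 1778 mRNA TPM in pool 1 at 42 °C and at 2965, 3375 and 3840 in pool 4, without overlap.

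The test of the difference itself, the pool 4 to pool 1 difference at 42 °C minus that at 30 °C, depended on the scale. On the mRNA sum 8 members were lower in limma, all but HCH1 and SGT1, beside 48.2% of tested genes and a median gene at −1.56. HSP82 was at −1.55 ± 0.37 (SE, limma adjusted p = 0.0040) and HSC82 at −1.56 ± 0.32, close to that median. With the median gene equalised 0 members passed in limma, 2 did at an unadjusted p under 0.05, and 0.456% of tested genes passed. There HSP82 was at 0.21 and SBA1 at 0.92 (limma adjusted p = 0.18). SGT1 (−1.12, limma adjusted p = 0.061) also passed on the mRNA sum with replicate number as a block, which made 9, beside 52.3% of tested genes lower. Without replicate 1, 2 or 3, 5, 4 and 3 members passed as lower, beside 37.8%, 20.5% and 15.8% of tested genes.

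**Figure D4:**
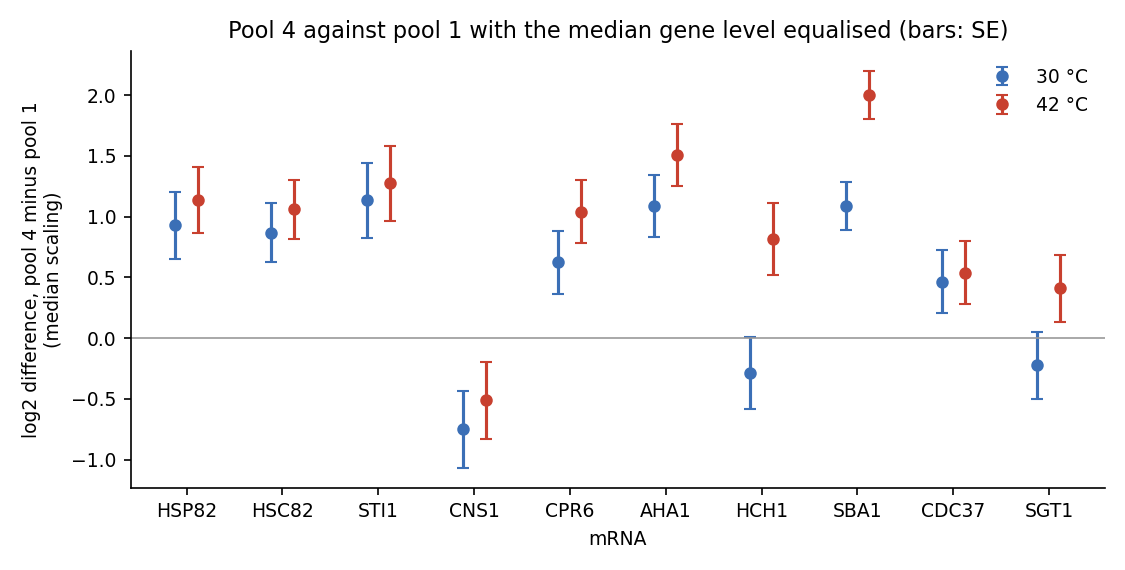
Log2 difference of each member between pool 4 and pool 1 at 30 °C and at 42 °C with the median level of the tested genes equalised between libraries, with bars for the standard error. SBA1 has the highest value at 42 °C (2.00), and CNS1 lies below 0 at both temperatures, without passing the test.

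Set against the spike-in RNA, pool 4 held a larger share of each member than of all mRNA in each of the 3 gradients at 30 °C. At 42 °C this held in each gradient for all members but CDC37, which was above all mRNA in 2 of 3 gradients, and HCH1, which was above it in 1 of 3. The share of tested genes for which this held was not counted. Relative to the mRNA sum at 30 °C, the median tested gene was itself higher in pool 4 than in pool 1, by 1.18 in log2. CNS1 (0.38), HCH1 (0.84) and SGT1 (0.90) lay below that median. If each pool of a gradient received the same amount of spike-in, which the labels do not state, pool 4 held 16.4 ± 1.21% of all mRNA at 30 °C and 34.6 ± 8.83% at 42 °C (SD, n = 3). It held 41.4 ± 8.36% of HSP82 at 30 °C and 47.1 ± 3.49% at 42 °C (SD, n = 3), and 38.5 ± 3.03% and 45.5 ± 3.96% of HSC82. For STI1 the shares were 43.6% and 48.6%, for CPR6 37.0% and 45.3%, for AHA1 39.1% and 50.3%, and for SBA1 39.0% and 51.6%.

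The other members had smaller shares there. CDC37 had 32.2% and 39.7% in pool 4, SGT1 27.3% and 41.2%, and CNS1 25.7 ± 5.004% and 35.9 ± 8.36%. At 42 °C all mRNA ranged from 29.2% to 44.8% over the gradients. HSC82, STI1, CPR6, CNS1, CDC37, SGT1 and HCH1 overlapped with that range, and HSP82, AHA1 and SBA1 lay above it. HCH1 had 19.05% in pool 4 at 30 °C against 40.2% in pool 3, and 32.9 ± 5.32% against 35.1 ± 5.31% at 42 °C (SD, n = 3). At 42 °C replicate 1 had more of it in pool 4 (38.7%) than in pool 3 (29.3%), and replicates 2 and 3 had more in pool 3. In that gradient of replicate 1 the spike-in was at 94.3 TPM in pool 3, against 22.7, 44.0 and 49.8 in pools 1, 2 and 4. Division by it lowers every pool 3 share of that gradient, where pool 3 held 10.8% of all rRNA. In mRNA TPM, HCH1 of replicate 1 at 42 °C was at 3308 in pool 3 and 2236 in pool 4. SBA1, the next shortest gene after HCH1, had 39.0% and 51.6% in pool 4, and a relation of these shares to gene length was not tested. These shares have no test, and the amount of spike-in in the table differed between replicate numbers, with 22.7 to 94.3 TPM in the libraries of replicate 1 and 245.7 to 511.3 in the others. In RNA of a pool, more mRNA per cell and a larger part of that mRNA in that pool cannot be told apart.

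**Figure D5:**
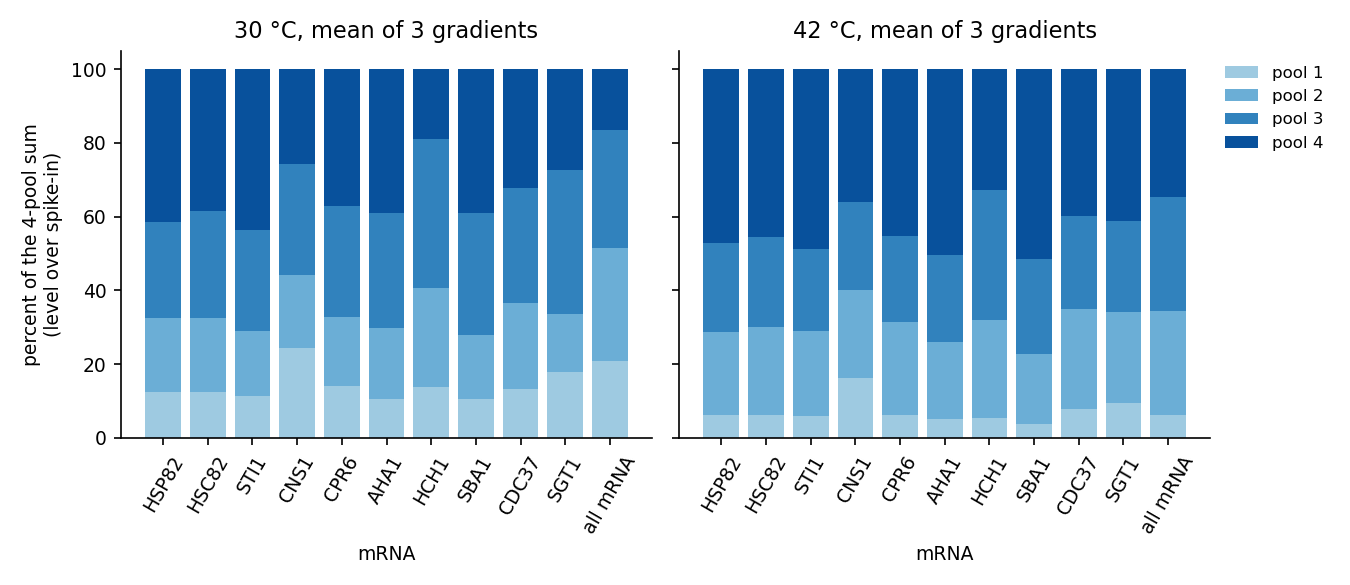
Percent of each member's mRNA in the 4 gradient pools at 30 °C and 42 °C, as level over spike-in RNA and mean of 3 gradients, beside all mRNA. Pool 4 holds 16.4% of all mRNA at 30 °C and 41.4% of HSP82. The mean share of HCH1 is largest in pool 3 at both temperatures, though at 42 °C not in replicate 1, whose spike-in level was highest in pool 3.

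Other chaperone mRNAs differed between families. All 10 tested members of an Hsp70 list rose over the 4 pools in limma, beside 31.2% of tested genes, with a median log2 difference of 5.13. SSA4 and SSA3, inducible Hsp70s, rose by 10.45 and 8.93, the disaggregase HSP104 by 7.24 and the exchange factor FES1 by 5.49. At 30 °C, SSA4 and SSA3 stayed below 10 mRNA TPM in every library (highest 9.35 and 9.01). They passed the filter on low levels through the libraries at 42 °C alone (lowest 4143 and 1469). The count of 10 includes both, and no gene of the Hsp70 list was left out by the filter. The Hsp70 paralogs share reads, so their single values are uncertain. Of 8 subunits of the cytosolic chaperonin CCT, which folds actin and tubulin, 0 passed in either direction in limma (0 at an unadjusted p under 0.05, median −0.05), beside 31.2% of tested genes higher and 32.4% lower, and CCT6 at 0.55, CCT5 at −0.38, CCT7 at −0.37 and CCT2 at 0.32 were the farthest from 0. On the 25S rRNA scale 6 of the 8 subunits passed as lower, beside 53.4% of tested genes. ACT1, the actin mRNA, was at −0.20 (limma adjusted p = 0.47).

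Partners of Hsp90 outside the 10 members passed only as lower at 42 °C. Of 6 tested, 0 were higher in limma (0 at an unadjusted p under 0.05) and 4 lower, beside 31.2% and 32.4% of tested genes, with a median of −1.05. The phosphatase PPT1, which acts on Hsp90, was at 7.31 to 128.0 mRNA TPM in the 12 libraries at 30 °C and was listed at 0 in 11 of 12 at 42 °C, highest 9.32. The mRNAs of the ATPases RVB1 and RVB2 and of TAH1, subunits of the R2TP adaptor complex of Hsp90, fell by 1.904, 0.99 and 1.11 on the log2 scale. PIH1, of the same complex, was at 0.47 and did not pass (limma adjusted p = 0.20). CPR7 was at −0.06 and did not pass either (limma adjusted p = 0.80). Of 10 client or regulator genes 5 passed the filter on low levels and 4 of these rose, beside 31.2% of tested genes: the MAP kinase SLT2 (3.32), the heat shock factor HSF1 (2.03), the kinase CAK1 (1.69) and the heme-responsive activator HAP1 (0.84). On the 25S rRNA scale 2 of the 5 passed as higher, beside 15%. A low gene can pass the filter through the libraries at 42 °C alone, so the count of risen genes depends on the filter. HSF1 was at 0.83 to 11.9 mRNA TPM at 30 °C and at 13.7 to 42.0 at 42 °C. Among genes left out, means at 30 °C and 42 °C were 2.13 and 6.32 for STE11 and 2.91 and 4.09 for MPS1. Means were lower at 42 °C for SWE1 (6.19 and 2.52), GCN2 (2.41 and 1.49) and CTF13 (2.00 and 0.64).

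The genes most like HSP82 over the 24 libraries were CPR6, HSP104 and HSP78, and the genes most like HSC82 were YDJ1, SSA2 and SSA1. Pearson's r of log2 levels with HSP82 was 0.998 for CPR6, 0.997 for HSP104 and 0.995 for HSP78, among 2127 genes. With HSC82 it was 0.994 for YDJ1, 0.994 for SSA2 and 0.993 for SSA1. The points share libraries, gradients and 2 temperatures, and these values are a description. Within the 12 libraries at 30 °C the r with HSP82 was 0.929 for HSC82, 0.934 for CPR6, 0.934 for STI1, 0.935 for AHA1, 0.921 for SBA1, 0.904 for CDC37 and 0.508 for HCH1. Within the 12 at 42 °C it was 0.989, 0.956, 0.950, 0.893, 0.649, 0.640 and 0.134 in the same order. HCH1 had the lowest value of these 7 at both temperatures.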

How the data were processed

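Per the labels, each library is RNA from 1 pool of fractions of a sucrose gradient, prepared by Stranded SMART-Seq with rRNA left in and spike-in RNA added to each pool. Per the submitters' processing notes the tools were Trim Galore 0.6.5 and Salmon 1.9.0 with build R64. The deposited values are TPM (transcripts per 1000000) for 6087 entries, and the columns sum to between 999968 and 999999. Read depth cannot be had from TPM, and no counting interval is given. All 6082 gene IDs matched the R64 gene table, and 0 value columns lacked a sample. 3 emptied lines were skipped.

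TPM was rescaled so that the 5959 mRNA entries of a library sum to 1000000 (mRNA TPM). A gene was tested if it reached 10 mRNA TPM in 3 or more libraries, which left 3949. Log2 of the level plus a pseudocount of 1 was fitted using limma 3.58.1 under R 4.3.3 (block correlations from statmod 1.5.0), allowing a mean-variance trend, 2-sided, at 5% after Benjamini-Hochberg adjustment over all tested genes. Fold changes are on that log2 scale, which understates those of low genes. Heat over the 4 pools was fitted on gradient means, and the single pools on all 24 libraries as 8 groups. Ratios of members were tested by exact permutation of 3 against 3 gradients. Tables and figures used Python 3.11.15, numpy 2.4.6, pandas 2.3.3, scipy 1.17.1 and matplotlib 3.10.9.

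The members and the companion gene lists were chosen with earlier results of these data known. Named beside the members are HSP104 and ACT1, up to 4 tested genes per companion list with the largest heat difference, and the 3 genes whose levels correlate best with HSP82 and with HSC82 among genes whose mean level reached 20 mRNA TPM. PPT1's libraries at 0, the strain markers, PIH1, CPR7 and the client or regulator genes that were not tested are given as checks. Alternatives were the pseudocounts 0.1 and 5, filters at 0 and at 50 mRNA TPM, scaling by the median gene, 25S rRNA or spike-ins, the deposited TPM unscaled, no trend, blocks, single pools and leaving out each replicate number. The fits without pool 1, the scaled pseudocount and the spike-in scale with a block were added after the data were seen. On data simulated for heat over the 4 pools with 3949 genes, limma recovered 43.3% of genes changed by 1 on the log2 scale, 83.6% of those changed by 2 and 90.9% of those changed by 3. The simulated noise was independent between libraries, without shared gradient or replicate effects, so these shares may be too high for the real data.

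Replicate numbers were checked for pairing before the fits were compared. Gradient means with the same number at the 2 temperatures deviated together, with correlations of 0.152, 0.142 and 0.191 over genes, so the numbers were taken to pair the gradients. Within single pools these correlations ran from 0.03 to 0.10.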

Additional observations from a re-analysis of the deposited data

Results flagged for a closer look

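Of the 10 members, 8 had a heat difference in pool 4 that was below their heat difference in pool 1, by limma's test of the difference itself on the mRNA sum. The differences in log2 were −1.55 for HSP82, −1.56 for HSC82, −1.61 for STI1, −1.52 for CNS1, −1.34 for CPR6, −1.33 for AHA1, −0.84 for SBA1 and −1.68 for CDC37. The median tested gene stood at −1.56 and 48.2% of tested genes passed as lower. With the median gene equalised 0 members passed in limma (2 at an unadjusted p under 0.05), so the direction of these 8 values rests on the scale.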

How the results depend on the processing

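Heat over the 4 pools called 8 members higher without each replicate number in turn, with replicate number as a block and with other pseudocounts. Beside these counts 23.3% to 32.3% of tested genes were higher. It called 1 higher on the spike-in scale (beside 1.01% of tested genes) and 6 higher and 1 lower there with replicate block (beside 9.42% and 49.8%). On the spike-in scale heat in pools 1 to 4 called 0, 2, 1 and 2 members higher (beside 0.58%, 1.62%, 1.47% and 1.70%), pool 4 against pool 1 called 0 at 30 °C and 0 at 42 °C, and the heat change of that difference called 0, all in limma (2 members in pool 1, 0, 2 and 0 at an unadjusted p under 0.05). These fits had no block, so the differing spike-in amounts of the replicate numbers enter their spread. Calls of 0 there do not show that a difference is absent. The median member stood at 2.84 in pool 4 against pool 1 at 42 °C, beside 1.36 for the median tested gene. Of the spike-in fits, only heat over the 4 pools was repeated with a block. Pool 4 against pool 1 called 5 at 30 °C and 6 at 42 °C with median scaling (beside 4.53% and 11.5%). At 42 °C it called 9 on the 25S rRNA scale (beside 46.3%) and 9 with TPM as deposited (beside 57.7%). Without any one replicate number it called 1 higher at 42 °C (beside 0.43% to 1.80%). The heat change of the pool difference called 0 on the 25S rRNA scale (3 higher at an unadjusted p under 0.05 in limma) and 0 with median scaling. It called 8 higher with TPM as deposited (beside 18.005%). Without one replicate number it called 3 to 5 lower on the mRNA sum (beside 15.8% to 37.8%). The 25S values that use pool 1 at 42 °C carry the low 25S rRNA of those libraries given above. With TPM as deposited, the pseudocount of 1 compresses low members. The cause of these shifts was not tested.

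The sizes given here for TPM as deposited are compressed by the pseudocount for low members such as CNS1 and SGT1. Signs turned for single members as follows. SGT1 over the 4 pools was −0.66 on the 25S rRNA scale, −0.15 with TPM as deposited, −0.75 with the pseudocount scaled, and −0.77 on the spike-in scale with and without replicate block. In pool 1, CNS1, SBA1, CDC37 and SGT1 were −1.54, −0.24, −0.034 and −1.11 on the 25S rRNA scale, −0.23, −1.05, −0.31 and −0.27 with TPM as deposited, and −1.57, −0.78, −0.54 and −1.35 relative to spike-ins, and CNS1 was −0.39 with median scaling. SGT1 in pool 2 was −0.49, −0.023 and −0.18 on those 3 scales, CDC37 in pool 3 was −0.18 on the spike-in scale, and SGT1 in pool 4 was 0.84 with median scaling. For pool 4 against pool 1 at 30 °C, CNS1, HCH1 and SGT1 were −0.75, −0.29 and −0.22 with median scaling. At 42 °C, CNS1, CDC37 and SGT1 were 0.41, 1.71 and 1.45 on the 25S rRNA scale, 0.10, 1.43 and 0.47 with TPM as deposited, and 0.66, 2.19 and 1.71 relative to spike-ins, CDC37 and SGT1 were 0.54 and 0.41 with median scaling, and CDC37 ran from −0.32 to 0.28 without one replicate number. The heat change of the pool difference for HSP82, HSC82, STI1, CNS1, CPR6, AHA1, HCH1, SBA1, CDC37 and SGT1 was 0.62, 0.61, 0.55, 0.33, 0.83, 0.81, 1.52, 1.33, 0.45 and 0.87 on the 25S rRNA scale. It was 2.39, 1.84, 2.03, 0.046, 2.31, 2.08, 2.69, 2.26, 0.69 and 0.23 with TPM as deposited, 0.21, 0.19, 0.14, 0.24, 0.42, 0.42, 1.11, 0.92, 0.075 and 0.63 with median scaling, and 1.26, 1.21, 1.17, 0.64, 1.44, 1.45, 2.12, 1.92, 0.99 and 1.15 on the spike-in scale. On the mRNA sum the block of replicate number changed 1 call of a member, that of SGT1 in this last comparison.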
